A study of Mus musculus with 9 samples.

Results

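Cytochrome P450 genes encode haem-containing monooxygenases that insert oxygen into fatty acids, sterols, steroid hormones, retinoids, vitamin D, drugs and pollutants. The members described here are all genes of the array whose symbol is Cyp followed by a digit, together with the aryl hydrocarbon receptor genes Ahr and Arnt, the receptor's repressor gene Ahrr and its target gene Tiparp. They numbered 77 of 18193 genes, 73 of them P450 genes. Their expression was measured with Affymetrix mouse arrays in the left ventricle. The mice were C57BL/6 males that had undergone sham surgery (n = 5 arrays) or transaortic constriction (TAC, n = 4 arrays) 6 weeks earlier. TAC narrows the aorta, raises the pressure against which the left ventricle pumps, and was used here to bring about heart failure. Both groups were operated, of 1 strain and 1 sex, and sampled at the same time, and the tissue was unsorted. The P450 reductase gene Por also belonged to the chosen set and was not analysed here.

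Most P450 enzymes sit in the endoplasmic reticulum and receive electrons from NADPH through P450 reductase, whereas a mitochondrial group uses ferredoxin. The liver holds most of the drug-metabolising forms. In the heart and its vessels P450 enzymes are known for turning arachidonic acid into epoxides, which relax vessels, and into hydroxylated products, which constrict them. The aryl hydrocarbon receptor, AhR, pairs with Arnt in the nucleus and switches on Cyp1 genes, and Ahrr and Tiparp are AhR targets that restrain the receptor.

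Values are on a log2 scale, and each is the brightest of a gene's probe sets, a probe set being a group of short probes for 1 transcript. A difference is TAC minus sham, so that 1 is a doubling, and is given with the standard error (SE) of a limma fit and a p-value adjusted over all 18193 genes (Benjamini-Hochberg). Genes with an adjusted p below 0.05 are said to rise or fall. A second limma fit, whose variances follow the expression level and resist outlying genes, is called the robust fit. Of the 77 members, 24 averaged above log2 6 over the 9 arrays and 53 did not. The threshold of 6 lies under the median of all probe sets, 6.57 on each array, so it does not by itself show that a gene is expressed. Just above it lay Cyp2c65 at 6.14, Cyp2j5 at 6.14 and Cyp26a1 at 6.02, and just below it Cyp4f18 at 5.89, the pseudogene Cyp4f41-ps at 5.82 and Cyp24a1 at 5.73. Cyp1a1 passed through its sham values, as its TAC mean was under 6, while Cyp2j5 and Cyp26a1 passed through their TAC values.

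Among the 24 members above log2 6, 5 rose and 3 fell. Cyp1b1, Cyp7b1, Tiparp, Cyp4v3 and Cyp20a1 rose by 0.31 to 1.04, and Cyp1a1, Cyp4b1 and Ahrr fell by 2.62, 0.93 and 0.53. The share called, 33.3%, equals that of all 12343 genes above log2 6, which was also 33.3% (16.8% higher and 16.6% lower). The members above log2 6, 20 of them P450 genes, were thus called no more often than all genes above that level. The results below concern single genes. In 7 of the 24 members the 2 groups did not overlap, against 34.0% of all genes above log2 6. The median difference was 0.08 for the 24 members and -0.01 for all genes above log2 6, and the median size of a difference, taken without its sign, was 0.25 and 0.19. The tissue was a mixture of cells, so fewer cells of a type and less RNA per cell cannot be told apart in any of these values.

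**Figure D1:**
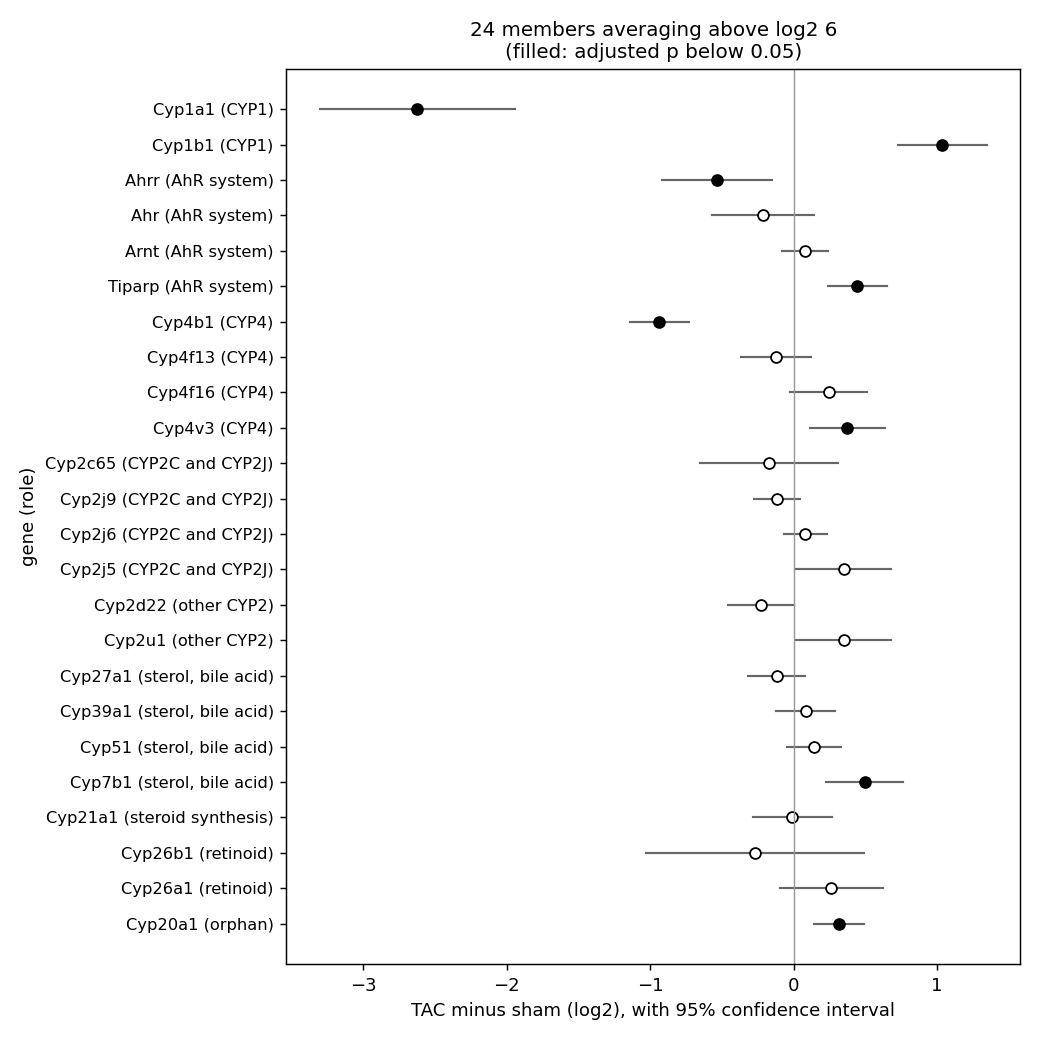
TAC minus sham (log2) for the 24 members that averaged above log2 6, grouped by role, with 95% confidence intervals from limma (5 sham and 4 TAC arrays); filled points have an adjusted p below 0.05. Cyp1a1, at -2.62, lies far to the left of the other members, and Cyp1b1, at 1.04, is the farthest to the right.

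The largest difference of any member was in Cyp1a1, which encodes the enzyme that oxidises polycyclic aromatic hydrocarbons and is the standard readout of AhR activity. In the sham arrays, replicates 1 to 5, Cyp1a1 read 7.07, 7.90, 7.14, 8.19 and 7.96, and in TAC arrays 1 to 4 it read 5.35, 4.53, 4.54 and 5.70. The highest TAC array lay well below the lowest sham array, and both groups were spread over more than 1 log2 unit. The difference was -2.62 (SE 0.31, 95% interval -3.30 to -1.94, adjusted p = 0.000178). All TAC values lay under log2 6, where signal can approach background, so the size of the fall on the array is less certain than its direction. It stayed between -2.84 and -2.45 on leaving out any 1 array. Cyp1a1 had 1 probe set. Its chromosomal neighbour Cyp1a2, an enzyme of the same subfamily found mainly in liver, was dim in both groups, at 3.60 ± 0.16 in the sham group (SD, n = 5) and 3.54 ± 0.20 in the TAC group (SD, n = 4), and its difference of -0.06 had an interval of -0.31 to 0.18.

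Cyp1b1, the other Cyp1 gene above log2 6, encodes an enzyme that acts on oestrogens, retinoids and polycyclic hydrocarbons in tissues outside the liver, and it moved the opposite way. Sham replicates 1 to 5 read 8.60, 9.03, 8.75, 8.69 and 8.41, and TAC replicates 1 to 4 read 9.69, 9.66, 10.07 and 9.49. Every TAC array lay above every sham array. The difference was 1.04 (SE 0.14, 95% interval 0.72 to 1.35, adjusted p = 0.000443), or 2.05-fold higher in TAC. A dimmer probe set of Cyp1b1 rose by 0.87 (adjusted p over all probe sets = 0.0396), with TAC replicate 4, at 5.63, inside the sham range of 5.07 to 5.89. The dimmest probe set, at a mean of 4.43, differed by -0.12 (adjusted p over all probe sets = 0.456).

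The 2 genes that restrain AhR also went in opposite directions. Tiparp, which encodes a mono-ADP-ribosyltransferase, read 8.48, 8.52, 8.63, 8.51 and 8.62 in sham replicates 1 to 5 and 9.14, 8.78, 9.20 and 8.88 in TAC replicates 1 to 4. The sham arrays lay close together and all TAC arrays were above them. Tiparp rose by 0.44 (SE 0.09, adjusted p = 0.00606). Its other 2 probe sets differed by 0.36 and 0.04 and did not pass over all probe sets (adjusted p = 0.0982 and 0.825).

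Ahrr, which encodes a protein that competes with AhR for Arnt, read 7.13, 6.80, 7.23, 7.35 and 7.58 in sham replicates 1 to 5 and 6.75, 7.09, 6.51 and 6.39 in TAC replicates 1 to 4. The groups overlapped, since TAC replicate 2 lay within the sham range. Ahrr fell by 0.53 (SE 0.17, adjusted p = 0.0465), a call close to the threshold. Leaving out any 1 of 7 arrays, all but sham replicate 2 and TAC replicate 2, ended it, the highest adjusted p being 0.130 without TAC replicate 3, and so did adjustment over all probe sets (adjusted p = 0.0577).

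Neither subunit of the receptor itself passed the threshold. Ahr read 8.64, 9.03, 8.89, 8.997 and 9.10 in sham and 8.81, 8.47, 8.41 and 9.19 in TAC, a difference of -0.21 (95% interval -0.57 to 0.14, adjusted p = 0.380). TAC replicate 4 had the highest Ahr value of all 9 arrays and TAC replicates 2 and 3 the lowest. Arnt differed by 0.08 (95% interval -0.08 to 0.24), and its 5 probe sets ranged from 0.07 to 0.15, all without passing.

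The 4 AhR targets that passed the test are shown with the sequence before their start sites, because they moved in different directions and because AhR with Arnt is known to bind sites around the letters GCGTG. Each sequence is the 250 bases before the annotated start in RefSeq (GRCm38.p6), 5′ to 3′ on the gene's own strand, and capitals mark GCGTG on either strand, so a match on the opposite strand reads CACGC. Cyp1a1 lies on the plus strand at chr9:57697363-57697612, Cyp1b1 on the minus strand at chr17:79715062-79715311, Tiparp on the plus strand at chr3:65528197-65528446 and Ahrr on the minus strand at chr13:74292332-74292581.
Cyp1a1: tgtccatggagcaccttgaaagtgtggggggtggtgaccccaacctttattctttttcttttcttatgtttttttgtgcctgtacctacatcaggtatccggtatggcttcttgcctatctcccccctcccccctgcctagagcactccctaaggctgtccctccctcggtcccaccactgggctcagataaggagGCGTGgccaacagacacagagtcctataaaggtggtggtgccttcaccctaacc
Cyp1b1: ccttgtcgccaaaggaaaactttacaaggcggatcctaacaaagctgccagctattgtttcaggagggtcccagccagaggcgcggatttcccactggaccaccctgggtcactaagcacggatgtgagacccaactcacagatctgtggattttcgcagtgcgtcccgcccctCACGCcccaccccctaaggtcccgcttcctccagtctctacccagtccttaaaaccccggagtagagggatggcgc
Tiparp: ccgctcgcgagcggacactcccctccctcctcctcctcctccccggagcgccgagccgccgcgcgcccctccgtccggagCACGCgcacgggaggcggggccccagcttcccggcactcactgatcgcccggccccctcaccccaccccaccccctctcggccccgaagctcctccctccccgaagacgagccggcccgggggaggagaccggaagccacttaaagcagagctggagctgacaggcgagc
Ahrr: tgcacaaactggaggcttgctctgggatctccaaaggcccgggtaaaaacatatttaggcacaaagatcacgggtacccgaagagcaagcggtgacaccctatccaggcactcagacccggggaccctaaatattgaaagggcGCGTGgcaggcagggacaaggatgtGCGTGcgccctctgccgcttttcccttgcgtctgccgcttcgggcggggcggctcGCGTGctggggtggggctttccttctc

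Cyp1a1 held 1 match, whose first base lay 54 bases before the start, and Cyp1b1 held 1 on the opposite strand at 76 bases. Tiparp held 1 on the opposite strand at 170 bases. Ahrr held 3, at 107, 82 and 27 bases. At least 1 match was present in 28.2% of all 32851 upstream windows of the same length. It was present in 16 of the 55 members that had a window, in 10 of 18 members above log2 6 and in 7 of 10 called members. The first share counts windows, whereas a member with several windows counted once if any of them held a match. All windows include those of genes at any expression level, and no share was computed for all genes above log2 6 or for all called genes. Ahrr and Tiparp were members because they belong to the AhR system. Whether the members' shares differ from that of all windows was not tested. A falling gene, Cyp1a1, and a rising gene, Cyp1b1, each had 1 match within these 250 bases. Bases farther upstream were not searched, so the counts do not compare all AhR sites of these genes. The direct repeat of AGGTCA with 1 base between the copies, the known site of PPAR with RXR, was searched on both strands in the same windows, as exact copies only. It was found in 0.0335% of all windows and in 0 of the 55 members' windows, which included Cyp4b1 and Cyp4v3. At so low a rate almost any 55 genes would hold none, so no conclusion is drawn from its absence.

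**Figure D2:**
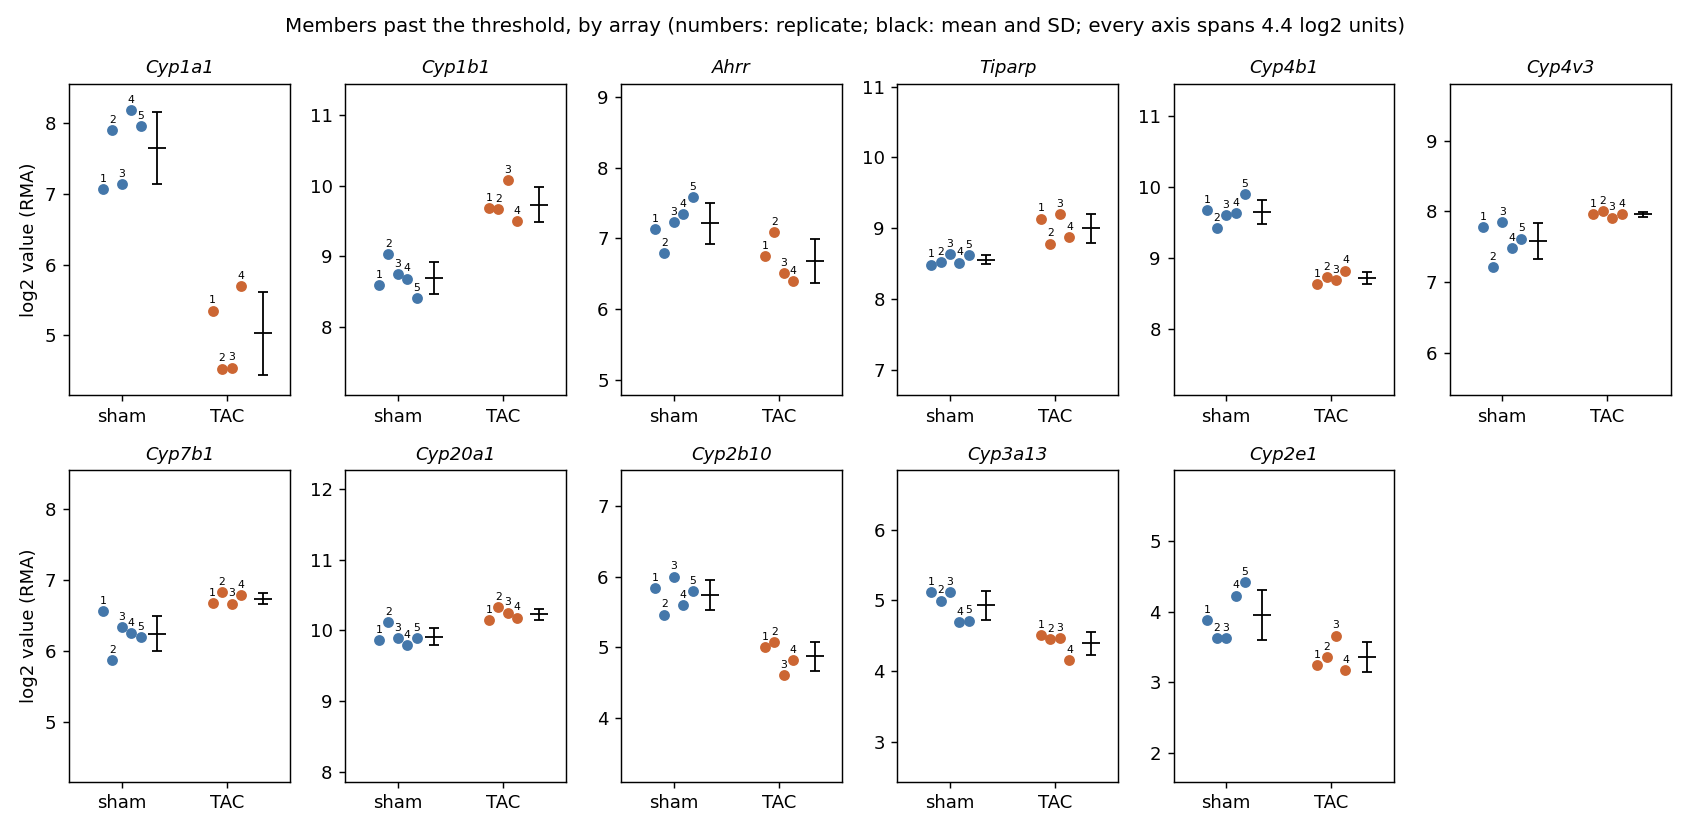
Log2 values of the 11 members past the threshold, 1 point per array with its replicate number, for 5 sham (blue) and 4 TAC (orange) arrays; black marks show the mean and SD, and every vertical axis spans the same log2 range. The sham and TAC points of Cyp1a1 are farthest apart, and those of Ahrr and Cyp2e1 overlap.

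Cyp4 enzymes hydroxylate fatty acids and eicosanoids at or near the tail of the chain. Of 13 Cyp4 genes, 4 averaged above log2 6, and 1 of them rose and 1 fell. Among all genes above log2 6, 33.3% were called. Cyp4b1, which also activates some plant and industrial toxins, read 9.68, 9.42, 9.60, 9.64 and 9.90 in sham replicates 1 to 5. In TAC replicates 1 to 4 it read 8.62, 8.73, 8.68 and 8.82, so the arrays of each group were close together and the groups far apart. Cyp4b1 fell by 0.93 (SE 0.09, 95% interval -1.14 to -0.73, adjusted p = 6.0e-05), or 1.91-fold, and by 0.87 to 0.99 on leaving out any 1 array. It had 1 probe set.

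Cyp4v3, the mouse counterpart of a fatty acid hydroxylase that is lost in a human crystalline retinal dystrophy, was higher in TAC. Its values were 7.78, 7.21, 7.84, 7.47 and 7.61 in sham and 7.96, 7.998, 7.91 and 7.96 in TAC. The TAC arrays nearly coincided (SD 0.04) and lay just above the highest sham array. Cyp4v3 rose by 0.37 (SE 0.12, adjusted p = 0.0416), a call lost on leaving out sham replicate 4 or 5 or any 1 TAC array, the highest adjusted p being 0.0978 without TAC replicate 2. Over all probe sets its adjusted p was 0.0556, and its dimmer probe set differed by 0.45 (adjusted p over all probe sets = 0.0779).

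Cyp4f16 and Cyp4f13, of a subfamily that includes leukotriene hydroxylases, did not pass. Cyp4f16 averaged 7.74 ± 0.21 in the sham group (SD, n = 5) and 7.98 ± 0.18 in the TAC group (SD, n = 4), with a difference of 0.25 and an interval of -0.02 to 0.51. Cyp4f13 differed by -0.12 (95% interval -0.37 to 0.12). The other 9 Cyp4 genes were at or below log2 6 and none passed. They included Cyp4a14, Cyp4a12a and Cyp4a31, of the subfamily that is induced through PPAR-alpha in liver, with means of 2.68 to 4.08.

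In the sterol group, whose members hydroxylate cholesterol and oxysterols or take part in cholesterol and bile acid synthesis, 1 of 7 rose and 0 fell. Of the 7, 4 averaged above log2 6, where 33.3% of all genes were called, against 7.73% at or below it. The riser was Cyp7b1, the oxysterol hydroxylase that clears hydroxylated cholesterol. Its values were 6.57, 5.88, 6.34, 6.25 and 6.20 in sham and 6.67, 6.83, 6.67 and 6.79 in TAC. All TAC arrays were above the highest sham array, and sham replicate 2 was the lowest array. Cyp7b1 rose by 0.50 (SE 0.12, adjusted p = 0.0128), and by 0.40 without sham replicate 2. Of its other 2 probe sets, 1 rose by 0.39 (adjusted p over all probe sets = 0.0393) and 1 differed by -0.15 (0.318), and the mean of all 3 differed by 0.25 without passing (adjusted p = 0.0836).

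Cyp51, the demethylase of cholesterol synthesis, did not pass, with values of 8.71 to 8.83 in sham and 8.71 to 9.13 in TAC and a difference of 0.14 (95% interval -0.05 to 0.33). Cyp27a1, the mitochondrial sterol hydroxylase, differed by -0.12 (95% interval -0.32 to 0.08), and Cyp39a1, an oxysterol hydroxylase, by 0.08 (95% interval -0.12 to 0.29). The bile acid enzymes Cyp7a1 and Cyp8b1 and the brain cholesterol hydroxylase Cyp46a1 were below log2 6 and did not pass. In limma 0 sterol genes had an unadjusted p below 0.05 in the lower direction, and the robust fit called 0 lower.

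Cyp20a1, an orphan enzyme with no settled substrate, read 9.86, 10.12, 9.90, 9.80 and 9.89 in sham and 10.15, 10.33, 10.25 and 10.18 in TAC. The groups were close but separate, with sham replicate 2 nearest to the TAC arrays. The difference was 0.31 (SE 0.08, adjusted p = 0.0137). The next brightest probe set rose by 0.35 (adjusted p over all probe sets = 0.0032) with sham values of 6.17 to 6.28 and TAC values of 6.57 to 6.66. The dimmest, at -0.15, did not pass, and the mean of all 3 probe sets missed the threshold (0.17, adjusted p = 0.102), as did the brightest after centring arrays on their median (0.26, adjusted p = 0.0696).

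The Cyp2c and Cyp2j genes, which include the main arachidonic acid epoxygenases, numbered 16, and 0 passed in limma. Only 4 of them averaged above log2 6, where 33.3% of all genes were called, against 7.73% at or below it. Of the 16, 1 had an unadjusted p below 0.05, Cyp2j5, and the robust fit called 0. Cyp2j5 read 5.62, 6.23, 6.02, 5.85 and 6.21 in sham and 6.04, 6.29, 6.37 and 6.63 in TAC, a difference of 0.35 with an interval of 0.02 to 0.68 before adjustment (adjusted p = 0.118). The groups overlapped, and it passed only with array weights (adjusted p = 0.0399). Its dimmer probe set differed by -0.08.

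Cyp2j6 was the most tightly measured of the epoxygenase genes above log2 6, with 7.41 ± 0.08 in the sham group (SD, n = 5) and 7.49 ± 0.08 in the TAC group (SD, n = 4) and a difference of 0.08 (95% interval -0.07 to 0.23). Cyp2j9 differed by -0.12 (95% interval -0.28 to 0.05) and Cyp2c65 by -0.17 (95% interval -0.65 to 0.31). The other 12 Cyp2c and Cyp2j genes, Cyp2c23 at 5.63 among them, were at or below log2 6. Their differences ran from -0.29 for Cyp2c23 to 0.08 for Cyp2c54.

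Of the 23 remaining Cyp2 and Cyp3a genes, which mostly handle drugs and foreign compounds, 2 averaged above log2 6. Cyp2d22, a member of the large mouse Cyp2d cluster, read 9.63, 9.95, 9.63, 9.44 and 9.81 in sham and 9.55, 9.33, 9.43 and 9.54 in TAC. The difference of -0.23 did not pass (adjusted p = 0.143), and its other probe set differed by -0.20. Cyp2u1, which hydroxylates long-chain fatty acids, differed by 0.35 (SE 0.15) and was not called (adjusted p = 0.121). Of the fits with 1 array left out, it passed only in that without sham replicate 1 (adjusted p = 0.0416). A second Cyp2u1 probe set of similar brightness differed by -0.14. Probes of close paralogs in these clusters may bind each other's transcripts, so single Cyp2 and Cyp3a values are uncertain.

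In the steroid and vitamin groups 0 of 10 members passed in limma, 1 had an unadjusted p below 0.05, and the robust fit called 0. Only 1 steroid and 2 vitamin group genes averaged above log2 6, where 33.3% of all genes were called, against 7.73% at or below it. Cyp21a1, the steroid hydroxylase of the adrenal, differed by -0.01 (95% interval -0.29 to 0.26), with 7.19 ± 0.25 in the sham group (SD, n = 5) and 7.18 ± 0.11 in the TAC group (SD, n = 4). Cyp11a1, Cyp11b1, Cyp11b2 and Cyp17a1, the other steroid-forming enzymes, averaged 3.82 to 5.59 and differed by -0.18 to 0.14. The aldosterone synthase gene Cyp11b2 read 3.78 in sham and 3.88 in TAC.

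The retinoic acid hydroxylase genes were near the brightness threshold. Cyp26b1 read 7.71, 5.95, 6.14, 6.43 and 5.67 in sham and 5.92, 6.02, 6.31 and 6.19 in TAC. Sham replicate 1 alone was more than 1 log2 unit above every other array, and without it the difference turned from -0.27 (adjusted p = 0.627) to 0.06 (adjusted p = 0.812). Cyp26a1 differed by 0.26 (95% interval -0.10 to 0.62, adjusted p = 0.284) and passed only with array weights (adjusted p = 0.0360). The vitamin D enzymes Cyp2r1, Cyp27b1 and Cyp24a1 were below log2 6. Of these Cyp2r1, which adds the first hydroxyl group to vitamin D, had a difference of 0.32 (adjusted p = 0.0965).

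Among the 53 dim members 3 fell and 0 rose, a share of 5.66% against 7.73% of all genes at or below log2 6. In the upward direction 2 had an unadjusted p below 0.05 and the robust fit called 0. Cyp2b10, the classic target of the receptor CAR in liver, read 5.84, 5.46, 6.00, 5.59 and 5.80 in sham and 5.00, 5.07, 4.60 and 4.82 in TAC. All TAC arrays were below all sham arrays. Cyp2b10 fell by 0.87 (SE 0.13, adjusted p = 0.000737), and its other 2 probe sets fell by 0.87 and 0.86 (adjusted p over all probe sets = 0.0078 and 0.0278). The 3 probe sets thus gave nearly the same difference, at means of 5.35, 3.86 and 3.51.

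Cyp3a13, a drug-metabolising enzyme of gut and liver, read 5.12, 5.00, 5.11, 4.69 and 4.71 in sham and 4.51, 4.46, 4.46 and 4.15 in TAC. It fell by 0.53 (SE 0.12, adjusted p = 0.00793) and the groups did not overlap. Cyp2e1, the ethanol-inducible enzyme, read 3.88, 3.63, 3.63, 4.23 and 4.42 in sham and 3.25, 3.36, 3.66 and 3.18 in TAC. Here TAC replicate 3 lay within the sham range. The fall of 0.59 (SE 0.18, adjusted p = 0.0311) was not called without sham replicate 4 or 5 or TAC replicate 1, 2 or 4, the highest adjusted p being 0.0830 without TAC replicate 1. Dim members named beside these 3 were chosen after their values were seen.

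**Figure D3:**
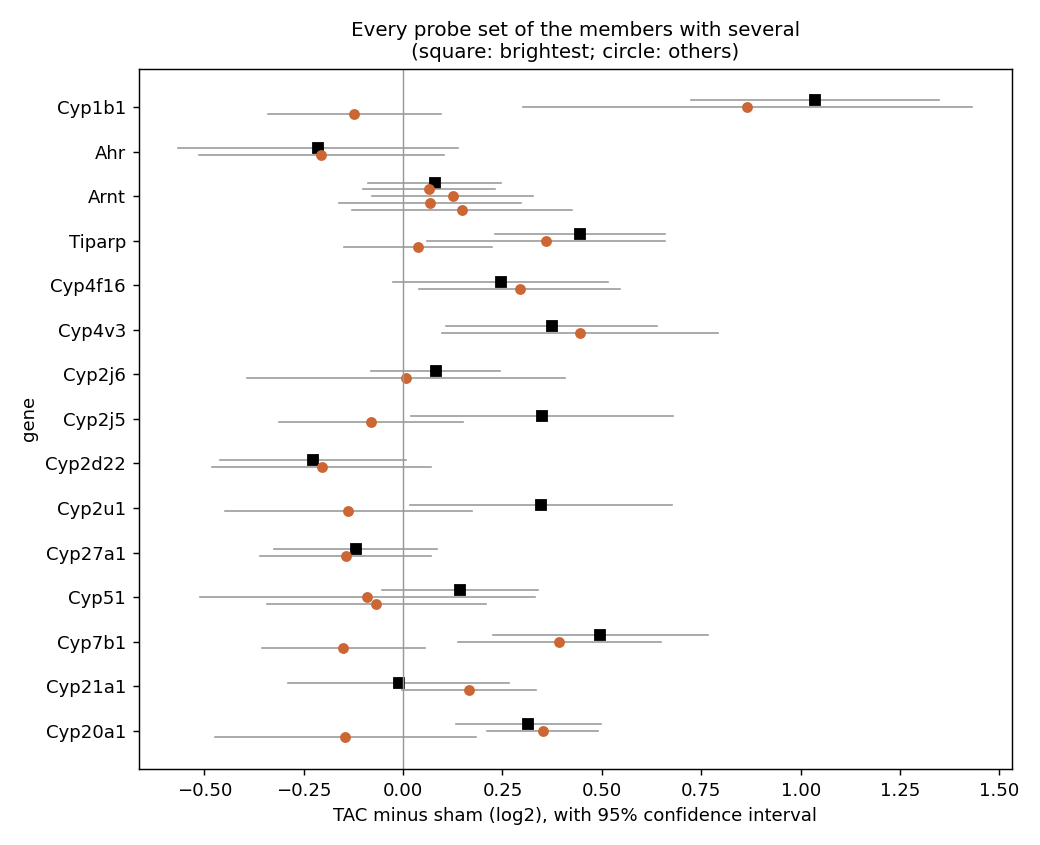
TAC minus sham (log2) with 95% confidence intervals for every probe set of the 15 members above log2 6 that have several; black squares are the brightest probe set, orange circles the others. The 2 brightest probe sets of Cyp1b1 lie to the right while the dimmest lies near 0, and the probe sets of Cyp2u1 and of Cyp2j5 fall on both sides of 0.

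The members differed in how steady they were within a group. In sham the SD of the 24 members above log2 6 ran from 0.06 for Cyp51 to 0.79 for Cyp26b1, and in TAC from 0.04 for Cyp4v3 to 0.59 for Cyp1a1. Cyp1a1 was therefore both the member with the largest difference and the one that varied most among TAC arrays. Probe sets decided some of the values: of the 15 members above log2 6 with several, Cyp1b1, Cyp20a1, Cyp7b1, Cyp2j5, Cyp2u1, Cyp51 and Cyp21a1 had probe sets on both sides of 0. Another 4 P450 probe sets were annotated to 2 genes each and took no part. They differed by -0.35 (Cyp3a41a and Cyp3a41b) to 0.24 (Cyp4f16 and Cyp4f37) and did not pass over all probe sets.

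**Figure D4:**
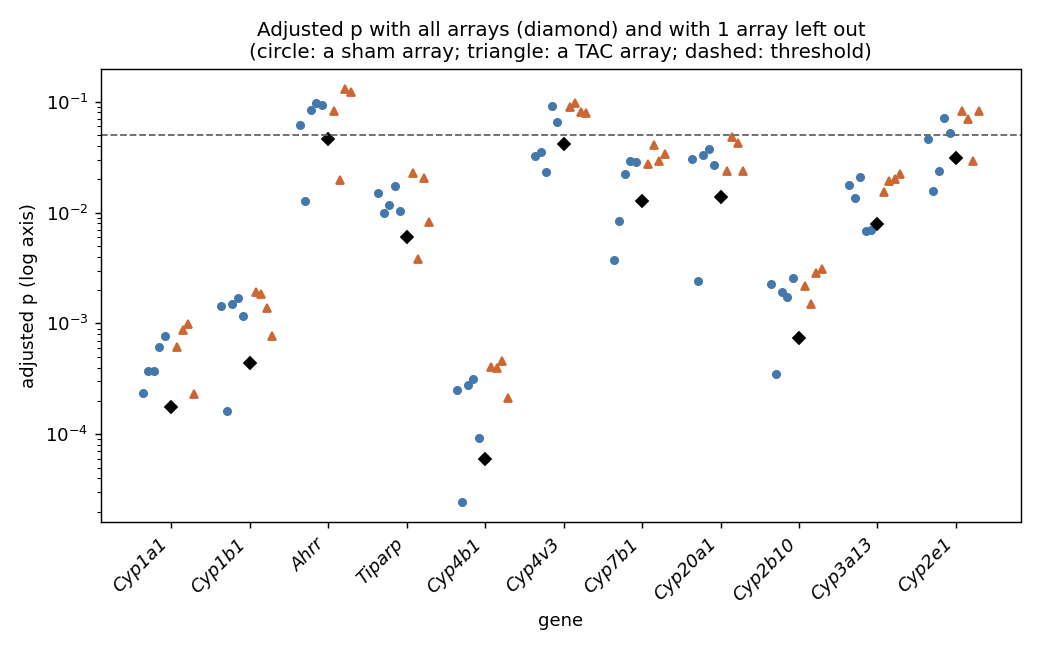
Adjusted p (log axis) of the 11 members past the threshold with all 9 arrays (black diamond) and with 1 array left out (blue circle: a sham array; orange triangle: a TAC array); the dashed line is 0.05. Points of Ahrr, Cyp4v3 and Cyp2e1 cross the line, while those of the other 8 members stay under it.

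Genes that work with the P450 enzymes were followed in lists of 68 genes, of which 59 were measured, and 25 of them passed. Those named beyond the 4 with the smallest p of a list were chosen after their values were seen. Most of the 59 averaged above log2 6, where 33.3% of all genes were called (16.8% higher and 16.6% lower). Among all 18193 genes, dim ones included, 12.8% were higher and 12.3% lower. Of 7 electron partners 3 rose and 1 fell, with a median of 0.23. The cytochrome b5 reductase genes Cyb5r3 and Cyb5r1 rose by 0.55 and 0.29, and Pgrmc2, whose protein binds haem, rose by 0.34. Fdx1, the ferredoxin that feeds mitochondrial P450 enzymes, fell by 0.36 (SE 0.06, adjusted p = 0.00217). The Cyb5r1 call was lost without any 1 TAC array, with adjusted p up to 0.0849.

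Haem is the cofactor of every P450 enzyme. Of 11 genes of haem synthesis and breakdown 5 fell and 0 rose, with a median of -0.19. In the upward direction 0 had an unadjusted p below 0.05 in limma and the robust fit called 0. Those that fell were all of synthesis: Alad by 0.65, Urod by 0.41, Alas1, the first and rate-limiting enzyme, by 0.36, Uros by 0.31 and Ppox by 0.22. Alas1 was not called without TAC replicate 3 (adjusted p = 0.0640), and Ppox not without sham replicate 1 or 4 or TAC replicate 1, 2 or 3 (up to 0.0981). With the mean of their probe sets Uros and Ppox differed by -0.04 and -0.08 and did not pass (adjusted p = 0.857 and 0.488). The haem oxygenase genes Hmox1 and Hmox2 differed by 0.15 and -0.07 without passing.

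Other genes of the AhR battery included calls in both directions, of which only the Selenbp1 fall held on leaving out any 1 array. Of 7 measured, 4 averaged above log2 6, 1 rose and 2 fell, with a median of -0.10. The selenium-binding protein gene Selenbp1 fell by 1.25 (SE 0.07, adjusted p = 1.75e-06). The quinone reductase gene Nqo1 rose by 0.30, a call lost without TAC replicate 1 (adjusted p = 0.0509) and after centring arrays on their median (adjusted p = 0.0701). The glutathione transferase gene Gsta2 fell by 0.42, and its call was lost without any of 7 arrays, all but sham replicate 2 and TAC replicate 4 (adjusted p up to 0.0989).

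Eicosanoid genes without a Cyp symbol held some of the larger differences. Of 16 measured, 5 rose and 4 fell, with a median of 0.09. Pla2g4a, the phospholipase that frees arachidonic acid, rose by 2.03 (SE 0.22), and Ptgs2, the inducible cyclooxygenase gene, by 1.71 (SE 0.21). Ptgis, the prostacyclin synthase, itself a P450 enzyme although not of Cyp name, rose by 1.52 (SE 0.12, adjusted p = 1.73e-05). Alox5ap rose by 0.60 and the epoxide hydrolase gene Ephx3 by 0.52.

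The lipoxygenase genes Alox12 and Alox5 fell by 0.91 and 0.77. Ephx2, the soluble epoxide hydrolase that removes the epoxides made by Cyp2c and Cyp2j enzymes, fell by 0.50 (SE 0.07, adjusted p = 0.000368). Ptges2 fell by 0.21, a call lost without any 1 of 8 arrays, all but TAC replicate 4 (adjusted p up to 0.117 without TAC replicate 2). Tbxas1, the thromboxane synthase and also a P450 enzyme, differed by 0.09 without passing.

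Of 18 nuclear receptors and SREBP genes that are known to regulate P450 genes 4 fell and 0 rose, with a median of -0.14. In the upward direction 0 had an unadjusted p below 0.05 and the robust fit called 0. Ppara fell by 1.10 and Rxrg by 0.90, Rxra fell by 0.54 and the LXR-alpha gene Nr1h3 by 0.36. The mean of the Rxra probe sets was not called (-0.18, adjusted p = 0.215). The CAR gene Nr1i3 and the PXR gene Nr1i2, the drug sensors of liver, averaged 5.77 and 3.70 and did not pass.

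**Figure D5:**
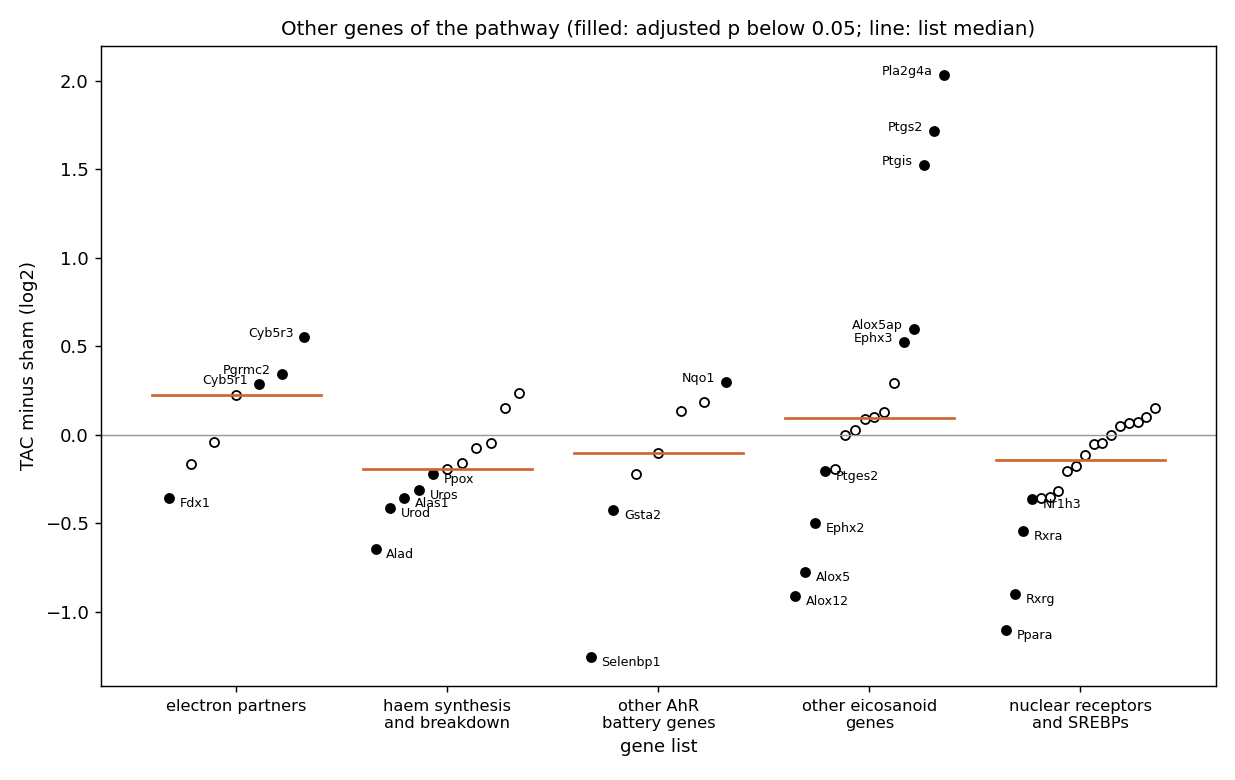
TAC minus sham (log2) of the 59 measured genes in 5 lists that work with the P450 enzymes, ordered within each list; filled and named points have an adjusted p below 0.05 and orange lines are list medians. Pla2g4a, Ptgs2 and Ptgis stand highest, Selenbp1 and Ppara lowest.

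Markers of the cells a ventricle can hold were examined beside these results, and their part in them was not tested. For the counts that follow, 33.3% of all genes above log2 6 were called, 16.8% higher and 16.6% lower, and all endothelial, fibroblast, macrophage and cardiomyocyte markers were above log2 6. Of 9 endothelial genes 1 rose and 1 fell (Vwf and Kdr), and the list's mean was 10.05 to 10.43 in sham and 10.15 to 10.30 in TAC. Its median difference was -0.10. The Kdr call was lost without sham replicate 1, 4 or 5 or TAC replicate 1, 2 or 3 (adjusted p up to 0.0859). Of 8 fibroblast genes 5 rose and 0 fell, and the list's mean was 11.14 to 11.30 in sham and 11.60 to 11.91 in TAC. The Dcn rise was not called with the mean of its probe sets (0.21, adjusted p = 0.225). Of 8 macrophage genes 7 rose and 0 fell, with means of 9.42 to 9.90 in sham and 10.29 to 10.48 in TAC. Neither list's mean overlapped between the groups. Taken singly, 8 of the 8 macrophage and 5 of the 8 fibroblast genes did not overlap, against 34.0% of all genes above log2 6. No such share was computed for list means, and a link with the members that rose was not tested. In both lists 0 genes had an unadjusted p below 0.05 in the downward direction and the robust fit called 0 there. The Csf1r call among the macrophage genes was lost without TAC replicate 1 or 4 (adjusted p up to 0.0699).

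Of 8 smooth muscle and pericyte genes 2 rose and 3 fell, and the list's mean overlapped between groups, at 9.80 to 10.10 in sham and 9.81 to 10.10 in TAC. The Pdgfrb rise was not called without sham replicate 4 or TAC replicate 1 or 3 (adjusted p up to 0.0678), nor after centring arrays on their median (adjusted p = 0.0939). With the mean of their probe sets neither Pdgfrb nor Myh11, which fell, was called (adjusted p = 0.141 and 0.0595). Of 8 cardiomyocyte genes 1 fell (Tnni3) and 0 rose. In the upward direction 0 had an unadjusted p below 0.05 and the robust fit called 0. The list's mean was 14.26 to 14.32 in sham and 14.20 to 14.22 in TAC, so every TAC array was slightly below every sham array. Its median difference was -0.04, and a link with the members that fell was not tested. The Tnni3 call was lost without any 1 of 8 arrays, all but sham replicate 2 (adjusted p up to 0.112). Of 5 adipocyte genes 0 passed, 1 having an unadjusted p below 0.05 and the robust fit calling 0. Adipoq averaged 3.89 in sham and 3.51 in TAC, and both were dim. It had the lowest difference of the list, whose median was -0.0076 and whose highest was 0.06. Of 7 liver genes 1 rose (Ttr), of 4 steroid cell genes 1 (Star, by 1.18) and of 7 mesothelial and epithelial genes 1 (Krt8). In these lists 2 liver, 1 steroid cell and 4 mesothelial and epithelial genes averaged above log2 6, as did 1 adipocyte gene. At or below log2 6, 7.73% of all genes were called. Of 2 erythroid genes 0 passed, 1 having an unadjusted p below 0.05 and the robust fit calling 0. The albumin gene Alb, at 5.93 in sham and 6.07 in TAC, did not pass.

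Every array held the same set of sorted values, so a general rise or fall of RNA could not be seen. In the first and second principal components of all genes, sham replicate 2 was separate from the remaining sham arrays. On the first it lay at -40.9, against -22.2 to -18.3 in the other sham arrays and 25.0 to 35.1 in TAC. Without sham replicate 2, 8 members above log2 6 were again called, 5 higher and 3 lower. Cyp1a1 then differed by -2.56, Cyp1b1 by 1.12 and Cyp4b1 by -0.99.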

How the data were processed

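Left ventricular RNA was hybridised to Affymetrix mouse arrays, 1 array per sample (5 sham, 4 TAC). Replicate numbers were given here in the order of the deposited samples within a group, serve only as names and pair no samples. The authors deposited log2 values, and the submitters' processing notes name RMA. The software, its version and the genome build are not given in the sources used here. All arrays hold the same sorted values, so RMA's quantile step removes any general difference between arrays. Of 45101 probe sets, 34945 had 1 gene symbol, 932 had several and 9160 were not listed. Each gene took its brightest probe set (mean over 9 arrays). TAC was compared with sham over 18193 genes with limma 3.58.1 (lmFit and eBayes, R 4.3.3) and Benjamini-Hochberg adjustment, at an adjusted p below 0.05. The number of arrays limits the precision, and the labels do not say in so many words that each array is a separate animal, so p-values may reflect technical spread alone.

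All members above log2 6 are named, those called with all values. Dim members are named if called, if probe sets disagree or as range ends, and the others named, such as Cyp1a2, Cyp2r1 and Cyp46a1, were chosen after their values were seen. The 3 members on each side of log2 6 are given, and up to 4 called pathway genes per list by smallest p. The members and lists were chosen with earlier results of these data known. Promoter sequences are those of RefSeq (GRCm38.p6). The alternatives were other probe set rules, variance models, array weights, centring, loess, brightness limits, call rules and leaving out each array.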

Additional observations from a re-analysis of the deposited data

Results flagged for a closer look

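In 3 of 54 groups of arrays examined, 1 array lay far from the others of its group by Dixon's test at the 95% level, and chance flags about 1 in 20 groups. Cyp27a1 read 9.15 in sham replicate 4, against 9.36 to 9.41 in the other sham arrays. Cyp2j9 read 6.75 in TAC replicate 3, against 6.94 to 6.98 in the other TAC arrays. Cyp3a13 read 4.15 in TAC replicate 4, against 4.46 to 4.51 in the other TAC arrays, and it was still called without that array (-0.45, adjusted p = 0.0221).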

How the results depend on the processing

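Of the members above log2 6, 8 were called (5 higher, 3 lower). The count higher was 3 with the mean of all probe sets and 8 with array weights. At a limit of log2 7, 5 members were called, 1 of them lower, and at any level 6 were lower and the median difference was -0.0081, against 0.08. An adjusted p below 0.01 left 4 called, 2 of them higher, and a 1.5-fold minimum left 3, 1 of them higher. Leaving out 1 array gave 6 to 8 called, 4 to 6 higher, 2 to 3 lower, a median of 0.05 to 0.09 and 20 to 27 pathway genes called, against 25. The stricter limits call fewer by construction, and otherwise the cause was not tested. Centring each array on its median over genes moved the median of all genes from -0.0038 to -0.05, with 1978 higher and 2907 lower in place of 2333 and 2232. No paired analysis was possible because the labels number no replicates, and the numbers used here are only names. Signal near background limits the 53 dim members and the TAC values of Cyp1a1.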
